A study of Mus musculus with 12 samples.

Results

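Vegfa, Vegfb, Vegfc, Pgf, Kdr, Flt1, Flt4, Nrp1, Nrp2 and Angpt1 are the ligands, receptors and co-receptors of the VEGF family together with angiopoietin 1, taken by symbol from a list of angiogenic ligands and their receptors. All 10 symbols were found among the 28244 genes of the expression table, and all 10 were measured highly enough to be tested. The samples were 3-dimensional pellets of primary cells from C57/BL6 pups aged 5 or 6 days, released by collagenase from the heads and condyles of femurs and tibiae. Every pellet spent 7 days in chondrogenic medium. D7 pellets were then harvested without osteogenic medium, while D8, D10 and D28 pellets had received osteogenic medium for 1, 3 and 21 days. RNA was sequenced in 3 libraries per time point, 12 in all, and no genetic change or untreated parallel culture was part of the series. The cells were an unsorted digest of the growing bone ends, so each value is an average over all cells left in a pellet. The labels do not say whether replicates came from separate cell preparations, so p-values measure only the spread between these libraries.

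VEGF ligands are secreted dimers that bind receptor tyrosine kinases, mainly on endothelial cells, and thereby direct blood and lymph vessel growth. VEGF-A acts through Kdr (VEGFR2) and is bound more tightly but with weaker signalling by Flt1 (VEGFR1), whereas VEGF-C acts mainly through Flt4 (VEGFR3), and neuropilins serve as co-receptors without kinase activity of their own. In the growth plate, hypertrophic chondrocytes make VEGF-A, vessels then enter the cartilage, and bone replaces it.

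Each value is the log2 of the read count plus 1 after the authors had equalized the libraries, and a difference of 1 on this scale is a doubling for all but the lowest genes. The 12 libraries held almost the same sorted values, so library totals are not kept and depth was read from the steps between low values. Relative depth ran from 0.73 to 1.31 and was highest on average at D28, where it was 1.2 to 1.31, though D8 replicate 3 stood at 1.22. A value of 3 reads stood at most at 2.87 on the log2 scale, and levels near it carry large counting error. The chondrocyte marker Col2a1 stood at the shared top value of 20.92 on average at D7, D8 and D28 and at 19.87 at D10, and equalization fixes that top value. Of the 6 chondrocyte markers, 0 were called higher and 4 lower at D10 against D7, namely Matn3 (-4.37), Comp (-1.77), Col9a1 (-1.65) and Acan (-1.17), with mean log2 levels at D10 of 8.29 to 16.45.

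Promoter sequences are shown for the most abundant ligand and the most abundant co-receptor, Vegfa and Nrp2, which had their highest mean at D10, and for a pair of ligands with their highest mean at D28, Vegfb and Vegfc. They are RefSeq sequences of build GRCm38.p6, written 5′ to 3′ on the gene's strand and ending just before the RefSeq start of the transcript (for Nrp2, at the edge of the GENCODE gene, which leaves out the last of its 5 GC boxes), with capitals marking the GC box (GGGCGG on either strand). Only bases outside the annotated gene are printed.
Vegfa: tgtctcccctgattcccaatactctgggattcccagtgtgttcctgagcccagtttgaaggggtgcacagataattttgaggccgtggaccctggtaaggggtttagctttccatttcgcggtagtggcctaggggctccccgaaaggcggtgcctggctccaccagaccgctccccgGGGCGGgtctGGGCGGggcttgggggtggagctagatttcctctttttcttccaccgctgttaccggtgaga
Nrp2: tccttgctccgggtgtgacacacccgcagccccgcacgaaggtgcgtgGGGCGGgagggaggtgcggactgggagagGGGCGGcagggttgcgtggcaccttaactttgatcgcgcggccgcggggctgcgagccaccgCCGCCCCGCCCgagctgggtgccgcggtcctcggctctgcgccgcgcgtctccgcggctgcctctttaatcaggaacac
Vegfb: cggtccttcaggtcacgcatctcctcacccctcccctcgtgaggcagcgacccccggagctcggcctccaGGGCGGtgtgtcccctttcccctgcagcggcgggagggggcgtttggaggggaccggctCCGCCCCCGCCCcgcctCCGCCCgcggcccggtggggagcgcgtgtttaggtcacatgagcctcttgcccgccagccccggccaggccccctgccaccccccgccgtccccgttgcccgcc
Vegfc: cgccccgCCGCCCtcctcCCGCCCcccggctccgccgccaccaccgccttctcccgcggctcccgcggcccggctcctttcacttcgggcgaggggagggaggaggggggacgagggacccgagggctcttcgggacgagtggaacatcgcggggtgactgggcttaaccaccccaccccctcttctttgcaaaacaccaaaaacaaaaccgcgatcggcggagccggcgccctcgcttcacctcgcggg

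These stretches lie at chr17:46032378-46032627 on the minus strand, chr1:62703067-62703284 on the plus strand, chr19:6987652-6987901 on the minus strand and chr8:54077282-54077531 on the plus strand. Windows of 250 bases were found for 9 of the 10 genes, and Angpt1 was not among them. A GC box stood in 9 of these 9 windows, against 32.7% of all 32851 promoter windows of that length, with adjacent or overlapping boxes in Vegfb and Nrp2. The windows were also rich in G and C, with a median of 68.4% against 52.4% over all windows, and 88.2% of all windows at or above 68.4% held a GC box. The hypoxia response element core ACGTG, the AP-1 site TGANTCA and the glucocorticoid receptor half-element TGTTCT, each searched on both strands, were found in 0 of the 9 windows, against 16.6%, 6.75% and 16.1% of all windows. Such matches describe letters in a short window and say nothing about binding. Genes highest at D10 and genes highest at D28 both held GC boxes.

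Vegfa was the most abundant of the 10 genes at every time point when counts were divided by exon length, and Kdr was the least abundant (the D8, D10 and D28 ranges of Kdr overlapped those of Flt4). The mean level of Vegfa was 1940, 2440, 3440 and 1700 equalized counts per kb of exons at the successive time points. Nrp2 came next at D7, D8 and D10, with 402, 861 and 1080 counts per kb, and Angpt1 took that place at D28 with 789. The receptors stood far lower. Flt1 had means between 5.17 and 9.59 counts per kb, Flt4 between 0.695 and 2.97, and Kdr between 0.0831 and 1.84. At D7, neighbours in the order that overlapped were Angpt1, Vegfb and Nrp1, with 240, 211 and 211 counts per kb, and at D10 they were Nrp1 and Pgf, with 74.8 and 72.2. Per kb of the longest transcript in place of all exons, Nrp1 came before Angpt1 and Vegfb at D7 (568, 293 and 264 counts per kb), and at D28 Angpt1, Nrp2 and Nrp1 were nearly level (964, 932 and 929), while Vegfa was the highest by either length. At D28 the means of Kdr and Flt4 per kb of exons were close (0.688 and 0.695), and by the longest transcript Kdr was no longer the lowest. Kdr had at most 24 reads and Flt4 at most 35 in a library. Low libraries of other genes had 36 reads of Angpt1 at D10, 49 of Pgf at D7 and 34 of Flt1 at D10.

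**Figure D1:**
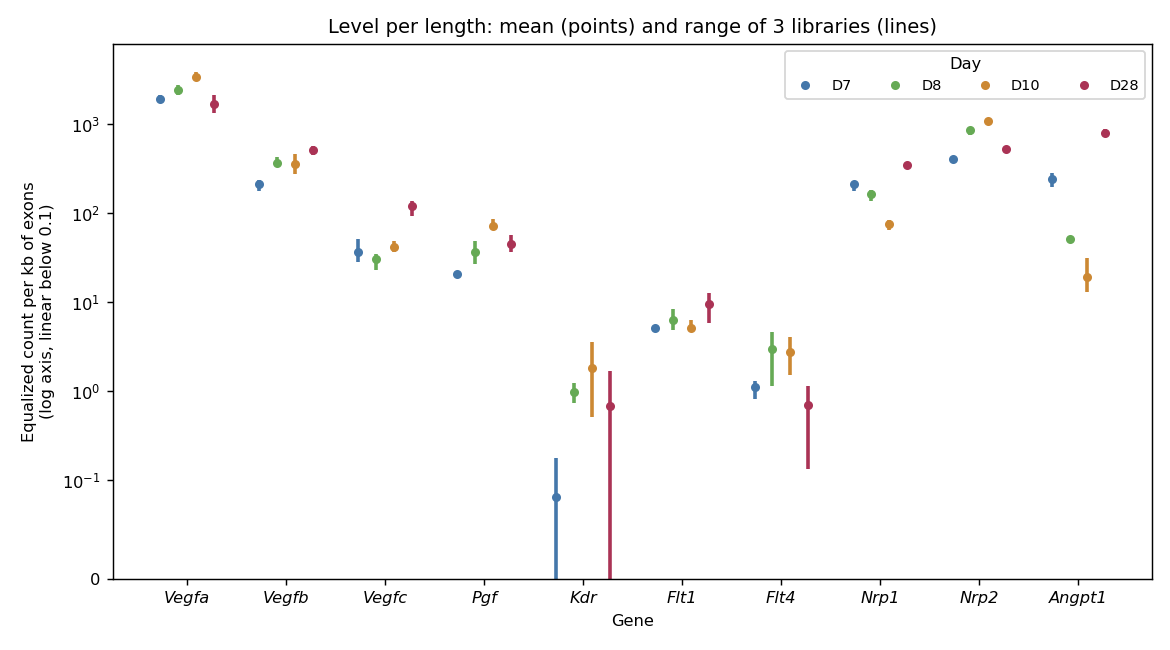
Equalized counts per kb of exons (vertical axis, logarithmic above 0.1) for the 10 genes, with points for the mean and lines for the range of the 3 libraries at each day. Vegfa lies highest at each day, between 1700 and 3440, while Kdr and Flt4 stay below 10.

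To see which of the genes differed along the protocol, time points were compared with limma over all 17674 genes tested. No parallel culture stayed in chondrogenic medium, so the change of medium and the time in culture cannot be told apart. A gene was called when its absolute log2 fold change was at least 1 and its Benjamini-Hochberg adjusted p was under 0.05. From D7 to D8, 3 of the 10 genes were called, 2 higher and 1 lower, where 7.04% of all genes tested were called (3.23% higher and 3.81% lower). From D8 to D10, 2 of 10 were called, both lower, where 9.66% of all genes were called (4.08% higher and 5.58% lower). Over both steps, D10 against D7, 5 of 10 were called, 3 higher and 2 lower, against 18.9% of all genes (8.50% higher and 10.4% lower). From D10 to D28, 6 of 10 were called, 3 in each direction, against 27.5% of all genes (13.8% higher and 13.7% lower). D28 against D7 gave 4 of 10, all higher, where 17.3% of all genes were called (8.63% higher and 8.66% lower). D28 against D8, pellets in the same medium, gave 4 of 10, 3 higher and 1 lower, against 19.7% of all genes (10.0% higher and 9.70% lower). The libraries of both groups did not overlap for 5 of the 10 genes at D8 against D7, beside 37.1% of all genes tested, for 6 at D10 against D8 (44.0%), for 8 at D10 against D7 (47.5%), for 7 at D28 against D10 (59.4%), for 7 at D28 against D7 (46.9%) and for 7 at D28 against D8 (54.2%). The median log2 fold change of the 10 genes was 0.56 for D8 against D7 (0.03 over all genes tested), 0.17 for D10 against D8 (0), 0.78 for D10 against D7 (0.05), 0.96 for D28 against D7 (-0.03), 0.39 for D28 against D8 (-0.08) and -0.06 for D28 against D10 (-0.1). These comparisons share libraries with each other and are not independent.

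**Figure D2:**
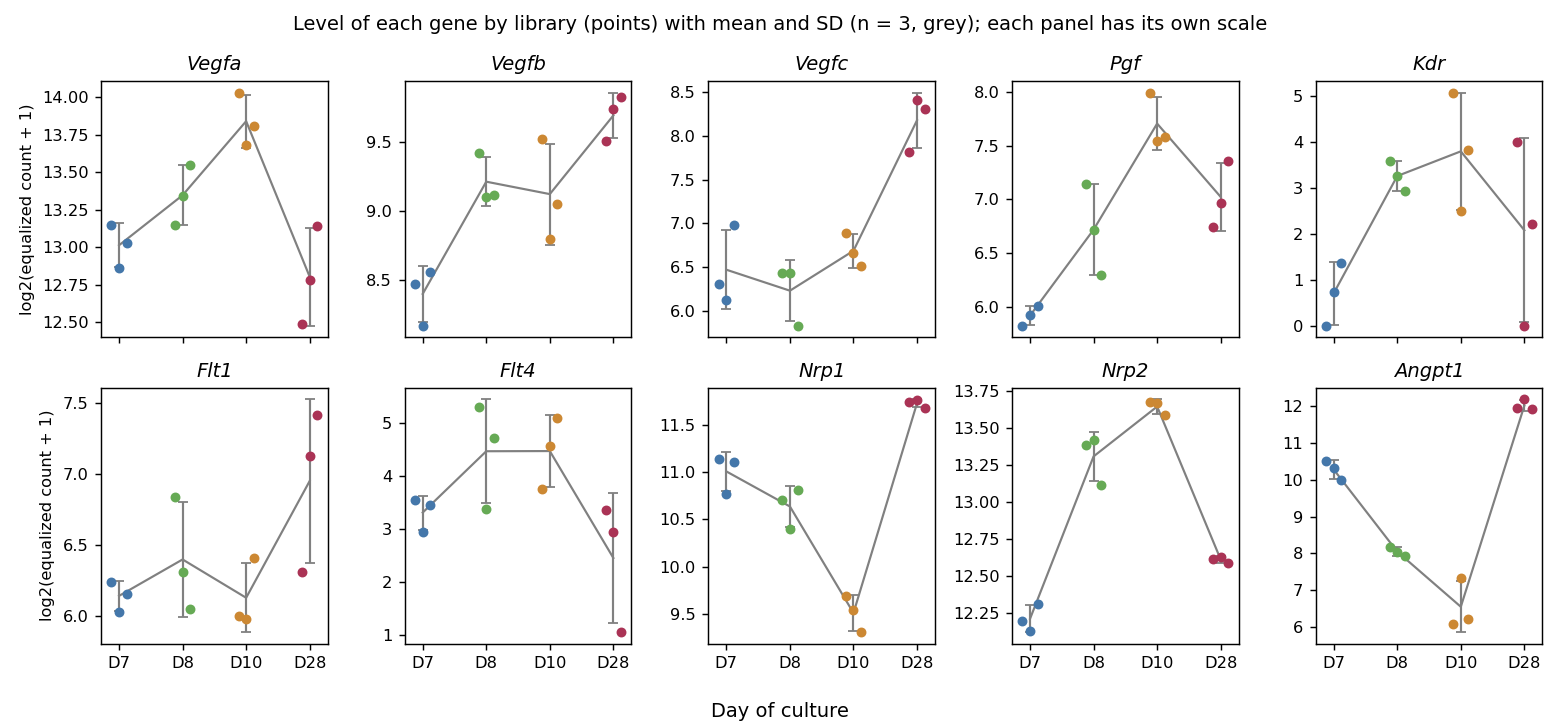
Level of each gene by library on the log2(equalized count + 1) scale against day of culture, with points for the 3 libraries and grey lines for the mean and SD. Vegfa, Pgf, Nrp2 and Kdr have their highest mean at D10, Nrp1 and Angpt1 their lowest, and each panel has its own vertical scale.

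Among the ligands, Vegfa, the main signal for blood vessel growth, was highest at D10 and lower again at D28. It lies on chr17:46016993-46032369, minus strand (GRCm38, as for all genes here). Its log2 values were 13.15, 12.86 and 13.03 at D7, 13.15, 13.34 and 13.55 at D8, 14.03, 13.68 and 13.81 at D10, and 12.49, 12.78 and 13.14 at D28. The D10 libraries were above all others, and D7 and D28 overlapped. Vegfa was 0.83 ± 0.16 (SE, n = 3 per group) higher at D10 than at D7, with limma's adjusted p = 0.00061 but a fold below the threshold for a call. It then fell by 1.04 on the log2 scale from D10 to D28 (adjusted p = 5.1e-05 in limma). This call was lost without D10 replicate 1, where the log2 fold change was -0.94, without D28 replicate 1, where it was -0.88, and under median-of-ratios scaling, where it was -0.91. D28 and D7 differed by -0.21, with a 95% interval from -0.55 to 0.13. In bulk RNA, fewer cells that make a transcript and less of it per cell cannot be told apart, here and for every gene below.

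Pgf encodes placental growth factor, a ligand of Flt1 but not of Kdr, and lies on chr12:85166635-85177790, minus strand. Its libraries gave log2 values of 5.83, 5.93 and 6.01 at D7, 7.14, 6.72 and 6.30 at D8, 7.99, 7.54 and 7.58 at D10, and 6.74, 6.97 and 7.36 at D28. All D7 libraries were below all others and all D10 libraries above. Pgf rose 3.44-fold from D7 to D10, a log2 fold change of 1.78 ± 0.24 (SE) with adjusted p = 2.7e-05 in limma. At D28 it was still 2.14-fold above D7 (log2 fold change 1.10 ± 0.24, adjusted p = 0.002 in limma), a call that the fold threshold removed without D28 replicate 3 (0.93). Neither single step from D7 to D10 was called, at 0.80 and 0.99, although both had adjusted p-values under the threshold in limma, 0.028 and 0.0064. Without D8 replicate 1 the second step was called (1.19), as it was without D10 replicate 2 (1.07) or D10 replicate 3 (1.05), and without D8 replicate 3 the first step was called (1.01).

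Vegfb, a further Flt1 ligand that is linked to metabolism and cell survival more than to vessel sprouting, lies on chr19:6982473-6987651, minus strand. The log2 values of the libraries were 8.47, 8.17 and 8.56 at D7, 9.42, 9.10 and 9.12 at D8, 9.52, 8.80 and 9.05 at D10, and 9.51, 9.74 and 9.83 at D28. The D7 libraries were below all others, and the D28 libraries overlapped D10 only at D10 replicate 1. Vegfb rose 2.45-fold over the whole osteogenic phase, a log2 fold change of 1.29 ± 0.17 (SE) from D7 to D28 with adjusted p = 2.6e-05 in limma. The difference after 1 day was 0.81 ± 0.17 (adjusted p = 0.0035 in limma), below the fold threshold.

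Vegfc, the ligand of Flt4 known for lymphatic vessel growth, lies on chr8:54077606-54187096, plus strand. The libraries gave log2 values of 6.31, 6.12 and 6.98 at D7, 6.43, 6.43 and 5.83 at D8, 6.89, 6.66 and 6.51 at D10, and 7.82, 8.41 and 8.31 at D28. The D28 libraries were above all others, the D8 libraries were below the D10 libraries, and D7 overlapped both D8 and D10. Vegfc rose 3.27-fold from D7 to D28 (log2 fold change 1.71 ± 0.26, adjusted p = 8.7e-05 in limma), and most of this lay between D10 and D28 (1.49 ± 0.26, adjusted p = 0.00017 in limma). From D7 to D10 the difference was 0.22, with a 95% interval from -0.33 to 0.77.

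The share of Vegfa among the ligands differed at D28. Per kb of exons, Vegfa made up 86.4 to 88.6% of the sum of Vegfa, Vegfb, Vegfc and Pgf at D7, 80.6 to 87.6% at D8, 86.8 to 88.9% at D10, and 69.6 to 73.7% in D28 pellets. The D28 libraries did not overlap any earlier library. The ratio of Vegfa to Pgf per kb was lower by D10 already, with 84.2 to 110 at D7, 43.9 to 104 at D8, 44.9 to 51.2 at D10 and 36.9 to 38.3 at D28. These ranges are descriptions of 3 libraries per time point, and an exact permutation test of 3 against 3 can give no p below 0.1.

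The neuropilins had called changes of opposite sign at D10 against D7 and at D28 against D10. Nrp1, a co-receptor for VEGF-A and class 3 semaphorins, lies on chr8:128358604-128503363, plus strand. Its log2 values were 11.14, 10.77 and 11.11 at D7, 10.70, 10.40 and 10.81 at D8, 9.69, 9.54 and 9.31 at D10, and 11.74, 11.76 and 11.68 at D28. Every D10 library was below and every D28 library above all others. Nrp1 fell by 1.50 on the log2 scale from D7 to D10 (adjusted p = 3.6e-07 in limma), of which -1.12 ± 0.13 lay between D8 and D10 (adjusted p = 2.9e-05 in limma). It then rose 4.65-fold from D10 to D28 (log2 fold change 2.22, adjusted p = 2.4e-09 in limma), and D28 was 0.72 above D7, which was not called. A microRNA gene, Mir1903, shares 80 bases (0.818%) of the exons of Nrp1 on the same strand.

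Nrp2, which binds VEGF-C and other semaphorins, lies on chr1:62703285-62818695, plus strand. On the log2 scale its values were 12.20, 12.13 and 12.31 at D7, 13.39, 13.42 and 13.12 at D8, 13.68, 13.67 and 13.59 at D10, and 12.62, 12.63 and 12.59 at D28. No library of any time point overlapped another time point. Nrp2 rose within 1 day of osteogenic medium, by 1.10 ± 0.10 (adjusted p = 5.2e-06 in limma), and stood 2.7-fold above D7 at D10 (log2 fold change 1.43, adjusted p = 5e-08 in limma). It fell by 1.03 on the log2 scale from D10 to D28 (adjusted p = 6.6e-07 in limma), a change that was -0.90 and no longer called under median-of-ratios scaling. At D28 it was 0.40 above D7 (adjusted p = 0.0065 in limma), in the same direction as Nrp1 and likewise below the fold threshold. The ratio of Nrp2 to Nrp1 per kb was 1.73 to 2.12 at D7, 4.11 to 6.74 at D8, 13.2 to 16.1 at D10 and 1.50 to 1.56 at D28. Per kb of the longest transcript in place of all exons, the middle values were 1.24, 3.49, 9.57 and 1.0, so the order of the time points was the same at a lower level. Nrp2 was the more abundant co-receptor at D10 by either length.

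**Figure D3:**
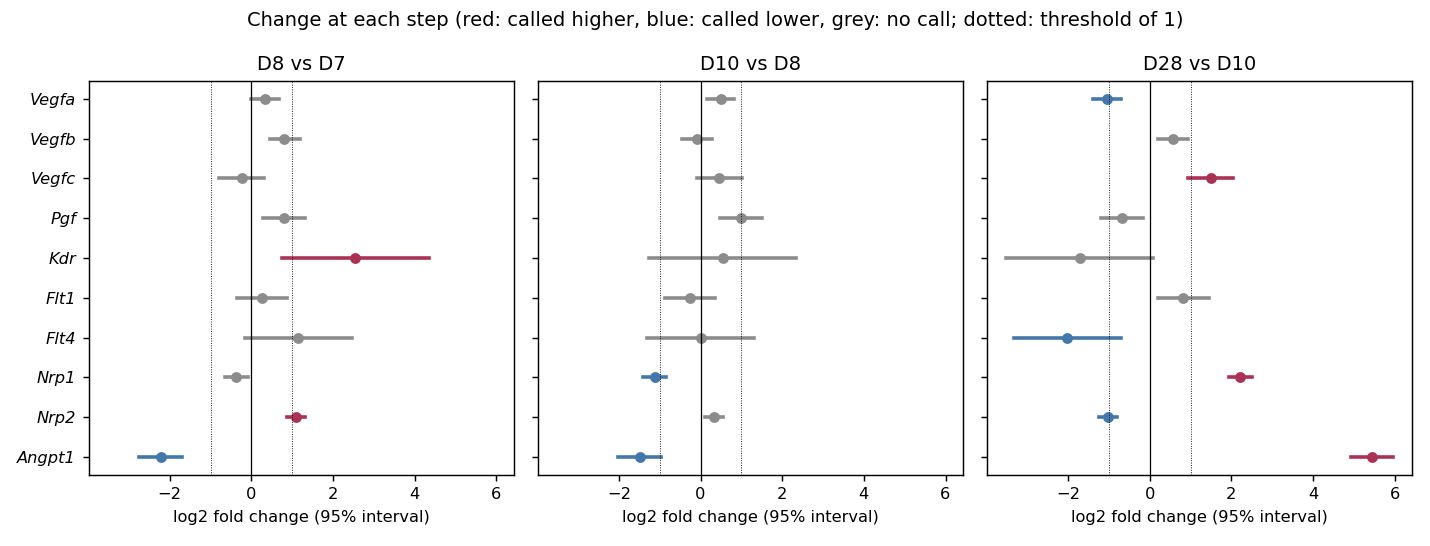
Log2 fold change with 95% interval (horizontal axis) for each gene at the successive steps D7 to D8, D8 to D10 and D10 to D28, with called genes in red (higher) or blue (lower), grey for no call, and dotted lines at the fold threshold. Angpt1 falls at both early steps and is 5.44 higher at the last, and the wide intervals of Kdr and Flt4 stand out.

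The receptor tyrosine kinases were low, and only one of them was well above the counting limit. Flt1, which also has a soluble form that gene counts cannot separate from the membrane form, lies on chr5:147561604-147726011, minus strand. Log2 values were 6.24, 6.03 and 6.16 at D7, 6.84, 6.31 and 6.05 at D8, 6.00, 5.98 and 6.41 at D10, and 6.31, 7.13 and 7.42 at D28. Flt1 was not called in any of the 6 comparisons. D10 and D7 differed by -0.01, with a 95% interval from -0.63 to 0.61, and D28 was 0.81 above D7 (adjusted p = 0.038 in limma), below the fold threshold. Without D28 replicate 1, the lowest of that group, the differences of D28 from D7 and from D10 were 1.14 and 1.15 and were called.

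Kdr, the main signalling receptor for VEGF-A on blood vessel endothelium, lies on chr5:75932827-75978458, minus strand. The log2 values of the libraries were 0, 0.74 and 1.37 at D7, 3.58, 3.26 and 2.92 at D8, 5.05, 2.50 and 3.82 at D10, and 4.00, 0 and 2.22 at D28. These correspond to 0, 1 and 1 reads at D7, 10, 7 and 7 at D8, 16, 3 and 9 at D10, and 24, 0 and 6 at D28. D7 was lower than D8 and D10 in every library, and D28 overlapped all other time points. Adjusted for depth, the 28 reads at D10 were 14.5 times the 2 reads at D7, with a 95% exact interval from 3.67 to 126 that covers counting error only. At D8, 24 reads gave a ratio of 10.4 (2.59 to 90.9), and at D28, 30 reads, of which 24 came from 1 library, gave 11.1 (2.82 to 96.1). D28 stood at 0.765 of D10 (0.442 to 1.33). Kdr was called higher at D8 (adjusted p = 0.043) and D10 (adjusted p = 0.008) against D7 in limma, but the D8 call was lost with a pseudocount of 8, with all low values raised to the 3-read level, without a filter on low values, and in 5 of the 6 fits that left out 1 library (without any D8 library, D7 replicate 1 or D7 replicate 2). The D10 call was lost with low values raised to the 3-read level, where the log2 fold change was 1.04 (adjusted p = 0.15 in limma). D28 did not pass against D7 (1.37, adjusted p = 0.23 in limma) but was called without D28 replicate 2 (2.41), D28 was called lower than D10 without D10 replicate 2 (-2.36) or D28 replicate 1 (-2.68), and lower than D8 without D28 replicate 1 (-2.14).

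Flt4, the receptor for VEGF-C on lymphatic endothelium, lies on chr11:49609263-49652739, plus strand. Its log2 values were 3.55, 2.95 and 3.45 at D7, 5.30, 3.39 and 4.73 at D8, 3.76, 4.57 and 5.10 at D10, and 3.37, 2.95 and 1.06 at D28, from between 2 and 35 reads per library. D28 was below D10 in every library. Flt4 fell by 2.02 on the log2 scale from D10 to D28 (adjusted p = 0.012 in limma), to 0.247 of its D10 level. The depth-adjusted reads gave a smaller fall, to 0.428 of D10 (95% exact interval 0.256 to 0.706). Against D7, the depth-adjusted ratio of reads was 2.53 at D8 (1.57 to 4.21), 1.95 at D10 (1.16 to 3.34) and 0.835 at D28 (0.464 to 1.51), intervals of counting error only, and none of these differences was called. The call of D28 against D10 was lost without D28 replicate 3 (-1.32) and without D10 replicate 3 (-1.71). The fall of D28 against D8 (-2.01, adjusted p = 0.016 in limma) was lost without D8 replicate 1, D8 replicate 3 or D28 replicate 3. The ligand Vegfc and its receptor Flt4 thus had called changes of opposite sign from D10 to D28.

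Endothelial cells are the usual source of Kdr, Flt4 and Flt1 transcripts, so endothelial markers are given beside them. Of 16 endothelial markers, 12 never exceeded 60 reads in any library, and 2, 0, 2 and 1 of them were at 0 in all libraries of D7, D8, D10 and D28. The defining markers had mean log2 levels at D7, D8, D10 and D28 of 3.12, 5.39, 3.97 and 2.66 for Pecam1, 2.65, 4.29, 2.05 and 0.54 for Cdh5, 2.41, 3.90, 2.72 and 1.11 for Cldn5, and 4.93, 7.76, 8.65 and 3.36 for Vwf. All 4 of them were higher on average at D8 than at D7 and lowest at D28, but over the 16 markers 9 were lowest at D10, 5 at D28 and 1 at D7, with 1 tied. The summed unlogged level of the list was 1350 to 1520 at D7, 918 to 1170 at D8, 764 to 832 at D10 and 487 to 603 at D28, most of it from Erg, a transcription factor also known in cartilage, and Vwf. From D7 to D8, 3 of the 14 markers tested were called higher and 1 lower. At D10 against D7, where Kdr was called, 1 marker was called higher and 2 lower, and at D28 against D10, where Flt4 was called, 1 higher and 2 lower. At D28 against D8, where Flt4 was also called lower, 0 markers were called higher and 6 lower, beside 10.0% and 9.70% of all genes tested. The 6 included all 4 defining markers, with log2 fold changes of -2.73 for Pecam1, -3.75 for Cdh5, -2.79 for Cldn5 and -4.4 for Vwf. At D28 against D7 the counts were 0 higher and 4 lower. With 1 library left out, the counts ran from 1 to 2 higher (2 without D10 replicate 3) and 2 to 4 lower (4 without D10 replicate 1) at D10 against D7. Those of D28 against D10 ran from 0 to 2 higher (0 without D10 replicate 3, 2 without D10 replicate 1) and 2 to 4 lower (4 without D28 replicate 1), and for D28 against D7 from 0 to 1 higher (1 without D7 replicate 3) and 1 to 5 lower (1 without D28 replicate 2, 2 without D7 replicate 2). Of the 2 lymphatic endothelial markers, Lyve1 was called higher from D10 to D28 (3.10, adjusted p = 0.0052 in limma) and Prox1 lower (-2.39, adjusted p = 0.0097 in limma), the comparison in which Vegfc rose and Flt4 fell. Their summed level was 12.8 to 17.8 at D7, 8.5 to 18.2 at D8, 19.1 to 29.2 at D10 and 10.4 to 104 at D28. The part of endothelial cells in the levels of Kdr, Flt4 and Vegfc was not tested.

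Angpt1 had the widest range of the 10 genes. It encodes angiopoietin 1, a ligand of the receptor Tek (Tie2) that stabilizes vessels, and lies on chr15:42424723-42676977, minus strand. On the log2 scale its values were 10.51, 10.30 and 10.00 at D7, 8.17, 8.05 and 7.93 at D8, 6.09, 7.35 and 6.24 at D10, and 11.92, 12.17 and 11.90 at D28. No library of any time point overlapped another time point. Angpt1 fell by 2.22 on the log2 scale from D7 to D8 (SE 0.24, adjusted p = 1.9e-05 in limma) and by a further 1.49 to D10 (adjusted p = 0.00039), which left it 13.1-fold below D7. It then rose 43.4-fold from D10 to D28 (log2 fold change 5.44, adjusted p = 1.1e-10 in limma) and ended 3.31-fold above D7 (1.73 ± 0.24, adjusted p = 4.5e-05 in limma). A gene on the opposite strand, Gm17473, covers 737 bases (14.2%) of its exons. The library kit keeps the strand, but the strand setting of the counting is not given in the sources used here.

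Markers of several other cell types were called in the same comparisons as Angpt1 and Nrp1. Of the 6 chondrocyte markers, 0 were called higher and 4 lower at D10 against D7. From D10 to D28, 3 of them were called higher and 0 lower, namely Matn3 (3.69), Comp (1.53) and Acan (1.35). All 5 adipocyte markers were called lower at D10 than at D7 and all 5 higher at D28 than at D7, with summed levels of 3800 to 4480 at D7, 1660 to 2290 at D8, 838 to 1320 at D10 and 40000 to 54600 at D28. Of the 6 mural cell markers tested, 5 were called higher and 1 lower from D10 to D28, led by Rgs5, a pericyte gene, with mean log2 levels of 5.67 and 10.49. The summed level of the list was lower at D28 (6330 to 7150) than at D10 (15200 to 18000). Most of this sum came from Cspg4, the 1 gene called lower, with mean log2 levels of 14 at D10 and 12.02 at D28. Of 7 macrophage markers, 5 were called higher and 1 lower from D10 to D28 (0 lower under median-of-ratios scaling), with sums of 479 to 999 at D10 and 460 to 2110 at D28. Of 3 markers of hypertrophic chondrocytes, 0 were called higher and 2 lower at D10 against D7, when Vegfa was at its highest. Ihh and Mmp13 had log2 fold changes of -5.98 and -2.51, and Col10a1 was at 0.83 (adjusted p = 0.14 in limma) and not called. From D10 to D28, when Vegfa fell, Ihh (6.13) and Mmp13 (2.45) were called higher and Col10a1 lower (-3.82, adjusted p = 2.7e-06 in limma). Col10a1 had mean log2 levels of 17.27, 17.58, 18.1 and 14.28 at D7, D8, D10 and D28. Summed levels of these markers were 181000 to 222000 at D7, 166000 to 273000 at D8, 211000 to 341000 at D10 and 56900 to 98400 at D28. Of 7 osteoblast markers, 3 were called higher and 3 lower at D10 against D7, and 4 higher and 0 lower (1 without D10 replicate 1 or D28 replicate 2) from D10 to D28. Ibsp, a bone matrix gene, was at -6.34 and then 4.86 in these comparisons, and Alpl, alkaline phosphatase, at -3.26 and then 2.47, whereas Bglap, osteocalcin, was higher in both (3.25 and 2.52). Skeletal muscle markers were called lower in 4 of 5 cases at D10 and in 5 of 5 at D28, both against D7, with summed levels of 2580 to 3360 at D7, 759 to 1310 at D8, 264 to 398 at D10 and 52.7 to 136 at D28. The part of these cell types in the changes was not tested.

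Further genes of the pathway were examined as lists. Of 5 angiopoietin and Tie genes, 0 were called higher and 2 lower at D10 against D7, and 1 higher and 1 lower at D28 against D7. Angpt2, a context-dependent antagonist of Tek, had mean log2 levels of 8.41, 7.16, 5.59 and 9.44 at D7, D8, D10 and D28, so that it fell by 2.82 to D10 (adjusted p = 6.9e-06 in limma) and was 1.03 higher at D28 than at D7. Angpt4, a further Tek ligand, fell by 3.56 on the log2 scale from D7 to D28, and unlike Angpt1 and Angpt2 it also fell from D10 to D28 (-1.40 ± 0.20). The receptors were low, with mean log2 levels of at most 3.33 for Tek and 2.48 for Tie1, and neither passed the test between D7, D10 and D28. The call of Angpt2 at D28 was lost without D7 replicate 1, D28 replicate 2 or D28 replicate 3.

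Of 6 genes for VEGF-D and for the maturation of VEGF-C, 1 was called higher and 4 lower at D10 against D7, and 2 higher and 1 lower at D28 against D7. Vegfd, the other Flt4 ligand, had mean log2 levels of 7.86, 6.89, 4.88 and 9.48, and it fell by 2.98 to D10 and rose by 4.60 ± 0.33 from D10 to D28 (adjusted p = 2e-08 in limma). Ccbe1, which promotes cleavage of VEGF-C, rose by 1.14 to D10 and was 1.28 above D7 at D28, the first call being lost without D7 replicate 2. Adamts3, the protease that works with Ccbe1, fell by 2.11 to D10 and was 4.29 below D7 at D28 (log2 fold change -4.29, adjusted p = 2.1e-07 in limma). The proprotein convertases Furin and Pcsk5 fell by 1.16 and by 1.68 from D7 to D10. Both lymphatic ligands, Vegfc and Vegfd, were higher at D28 than at D7, and the VEGF-C protease Adamts3 was lower.

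Among 13 neuropilin partners (class 3 semaphorins, plexins and Gipc1), 0 were called higher and 1 lower at D10 against D7, where both neuropilins were called. This was Sema3b, with a log2 fold change of -1.63, and without D10 replicate 1 the number called lower was 2. From D10 to D28, where both neuropilins were called in the reverse direction, 4 partners were called higher and 3 lower, beside 13.8% and 13.7% of all genes tested. At D28 against D7, 1 was called higher and 3 lower. The semaphorin receptor Plxnd1 rose by 1.22, while Plxna4 had a log2 fold change of -4.61, Sema3a of -2.19 and Sema3d of -1.86.

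Of 13 other angiogenic factors, 4 were called higher and 6 lower at D10 against D7, and 1 higher (2 under median-of-ratios scaling or without D7 replicate 2) and 3 lower at D28 against D7. The chemokine Cxcl12 followed the course of Nrp1 and Angpt1, with mean log2 levels of 11.61, 10.36, 7.43 and 13.71, and it fell by 4.18 to D10 and at D28 was 2.10 above D7 (adjusted p = 1.8e-06 in limma). Hgf, hepatocyte growth factor, rose by 1.78 to D10 and had a log2 fold change of -1.06 at D28 against D7. Pdgfb, which recruits mural cells, fell by 3.94 to D10 and was at -4.09 at D28 against D7, from low levels. At D10 against D7, Pdgfd was at -2.41, Apln at -2.34 and Efnb2 at -1.41, and only Efnb2 of these was also called lower at D28.

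Of 9 angiogenesis inhibitors, 1 was called higher and 5 lower at D10 against D7, and 3 higher and 3 lower at D28 against D7. Cnmd (chondromodulin), an antiangiogenic protein of cartilage, had mean log2 levels of 14.01, 13.48, 10.92 and 15.16, so that it fell by 3.09 to D10 (adjusted p = 2e-09 in limma) and was 1.15 above D7 at D28. Its relative Tnmd fell by 3.80 to D10 and was 1.45 above D7 at D28. Thrombospondin 2 (Thbs2) had a log2 fold change of -2.25 at D10 and of -2.92 at D28 against D7. Timp3, a protease inhibitor that also blocks VEGF binding to Kdr, was 1.38 higher at D10 and had a log2 fold change of -1.53 at D28. Adamts1 was at -1.41 at D10 and 1.49 at D28, and Vash1, a feedback inhibitor of endothelial cells, was at -2.58 at D28.

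Because Vegfa is a target of hypoxia signalling, genes of that response were listed as well. Of 13 hypoxia response genes, 1 was called higher and 2 lower at D10 against D7, when Vegfa was at its highest. Over all genes tested, 8.50% were called higher and 10.4% lower in that comparison. The glucose transporter Slc2a1 was 1.80 higher at D10 (adjusted p = 0.00011 in limma), while Bnip3 and Egln3 had log2 fold changes of -1.46 and -1.34. Under median-of-ratios scaling 4 genes were called lower. The median of the list was -0.67 at D10, beside 0.05 over all genes tested. From D10 to D28, when Vegfa fell, 4 were called higher and 1 lower, beside 13.8% and 13.7% of all genes tested. Of 7 hypoxia regulators, 0 were called at D10 against D7 in limma, although Epas1 (-0.68), Egln1 (-0.66) and Vhl (-0.50) had an adjusted p under the threshold with a fold below it. Epas1, the oxygen-regulated factor HIF-2 alpha, was 2.62 higher at D28 than at D7 (adjusted p = 5.6e-09 in limma). All marker and pathway lists were described by counts, and none was tested as a set. Their counts are to be read beside the shares called over all genes tested. These shares were 8.50% higher and 10.4% lower for D10 against D7, 13.8% and 13.7% for D28 against D10, and 8.63% and 8.66% for D28 against D7.

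**Figure D4:**
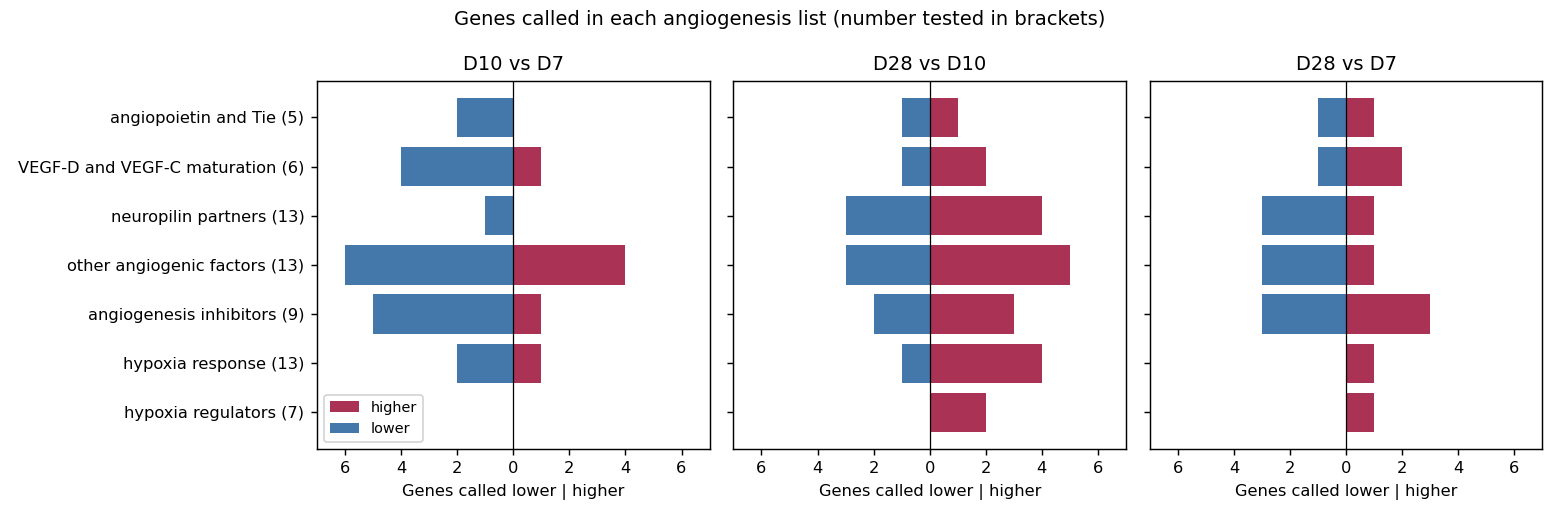
Number of genes called higher (red, to the right) or lower (blue, to the left) in each pathway list for D10 against D7, D28 against D10 and D28 against D7, with the number tested in brackets. Angiogenesis inhibitors show 5 lower and 1 higher at D10 against D7 and 3 in each direction at D28 against D7.

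The time courses of the 10 genes were also set against each other and against all genes tested, as Pearson's r over the 12 libraries, which share time points and therefore are no independent evidence of a link. Among the 10 genes, Nrp1 and Angpt1 had r = 0.94, Vegfa and Angpt1 r = -0.9, Vegfa and Nrp1 r = -0.86, and Nrp2 and Angpt1 r = -0.83. The genes most like Vegfa were Fubp3 (0.979), Aox3 (0.969) and Atf3 (0.965). Those most like Nrp1 were Cxcl12 (0.99), Cry2 (0.989) and Abi3bp (0.988), and those most like Angpt1 were Tnfsf11 (0.992), Wfdc21 (0.989) and Clybl (0.988). Tnfsf11 encodes RANKL, the cytokine that drives osteoclast formation, and Cxcl12 is a chemokine of bone marrow stroma. Nrp2 was most like Frrs1 (0.988), Procr (0.984) and Map6 (0.983), and Pgf most like Ccdc149 (0.982), Elmo1 (0.969) and Spry4 (0.96). For Vegfc they were Cdkn2b (0.978), Foxred2 (0.976) and Tcn2 (0.975), and for Vegfb 2310033P09Rik (0.966), Tkt (0.958) and Gas8 (0.957). The low receptors reached less, with Slc18a1 for Kdr (0.928) and Sv2c for Flt4 (0.905).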

How the data were processed

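RNA was sequenced from pellets at D7, D8, D10 and D28, 3 libraries each. Per the study's methods and processing notes, reads were trimmed (Trimmomatic 0.36), aligned with HISAT2, annotated with Cufflinks and counted per gene with HTSeq. The authors deposited log2 values, the log2 of the equalized count plus 1. The methods name the human genome hg38 and the processing notes GRCm38. The table lists mouse symbols, and positions here are from GENCODE M21 (GRCm38). Values of equal rank differed between libraries by a median of 0.00284 above a level of 5, which is what quantile normalization gives, so library totals are lost. Read counts of low genes were taken from the steps between low values. Relative depth came from 562 genes with 5 to 60 reads and covers counting error only, without molecular identifiers.

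Tests covered the 17674 genes that reached a log2 value of 1 in 3 or more libraries (10570 did not) with limma 3.58.1 in R 4.3.3, with 1 coefficient per time point, all 12 libraries, a variance trend and two-sided p-values (residual degrees of freedom 8, prior 7.23). A call needed a 2-fold change or more in either direction and a p under 0.05 after adjustment by Benjamini and Hochberg's method across every tested gene. The script was tested on simulated data. Levels between genes were compared per kb of the union of exons, or of the longest transcript as an alternative. Named besides the 10 genes were up to 4 called genes per list with the largest change at D10 or D28 against D7, defining markers, and the 3 genes most correlated with each of the 10 (only the first for Kdr and Flt4, and those of Flt1 are not reported here). Tek, Tie1, Gm17473, Mir1903, Col2a1, Prox1, Col10a1 at D10 and 3 hypoxia regulators (Egln1, Vhl and Epas1 at D10) lie outside this rule and were named after their values were seen. The 10 genes and all lists were chosen with earlier results of these data known. Alternatives covered the filter, scaling, pseudocount, a 3-read floor, a replicate block, the study's 2-group rule, the fold threshold and each library left out, and list counts under scaling and left-out libraries were added after seeing the data. No sequencing batch or date is given in the sources used here.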

Additional observations from a re-analysis of the deposited data

How the results depend on the processing

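Without the fold threshold, the genes called were 3714 (D8 against D7), 5096 (D10 against D8), 7288 (D10 against D7), 9259 (D28 against D10), 6592 (D28 against D7) and 7304 (D28 against D8), in place of 1244, 1708, 3340, 4854, 3057 and 3487. Of the 10 genes, 5, 5, 7 and 7 were then called for D8 against D7, D10 against D8, D28 against D7 and D28 against D8, in place of 3, 2, 4 and 4. For D10 against D7, Vegfa and Vegfb were also gained, and for D28 against D10, Vegfb, Pgf and Flt1. The only log2 fold change that turned sign under another scaling or pseudocount was that of Flt4 for D10 against D8, from 0.01 to -0.02 under both median-of-ratios scaling and a pseudocount of 8. With 1 library left out, signs also turned for uncalled differences, with ranges of -0.15 to 0.07 for Flt1 (D10 against D7), -0.41 to 0.01 for Vegfc (D8 against D7), -0.29 to 0.07 for Vegfb, -0.54 to 0.42 for Flt4 and -0.09 to 1.18 for Kdr (each D10 against D8). Called members ranged from 2 to 3 for D8 against D7, 2 to 3 for D10 against D8, 5 to 7 for D28 against D10, 3 to 5 for D28 against D7 and 3 to 5 for D28 against D8, and were 5 throughout for D10 against D7. Under the study's rule, Flt4 was not called for D28 against D10 or D8, and with low values raised to the 3-read level it was not called for D28 against D8. With a mean log2 value of at least 3 required, Kdr was not tested. Nrp1 was not called for D28 against D8 without D8 replicate 2 (0.97). A fit with replicate number as a replicate block left all 60 calls of the 10 genes as they were, with 3, 2, 5, 6, 4 and 4 called in the 6 comparisons (in the order D8 against D7, D10 against D8, D10 against D7, D28 against D10, D28 against D7, D28 against D8). Deviations of same-numbered libraries correlated between -0.058 and 0.066, so no shared deviation was visible. Such values cannot tell whether libraries came from the same cell preparation. The cause of these shifts was not tested. At most 24 reads of Kdr and 35 of Flt4 were counted in a library, which limits their precision. Per kb levels changed by more than the replicate spread for 28 of 40 values with the longest transcript as length.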
